A study of Mus musculus with 16 samples.

Results

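The genes of chondrocyte hypertrophy and mineralization were examined in 16 RNA-Seq libraries of chondrocyte-enriched cells from mice. The 10 genes were taken by symbol, and each matched 1 of the 55414 gene identifiers that were counted. They are *Ihh*, *Pth1r*, *Runx2*, *Sp7*, *Col10a1*, *Spp1*, *Ibsp*, *Alpl*, *Phospho1* and *Panx3*. Cells came from the epiphyses of the limbs of 3- to 4-day-old mice, pooled from males and females, that carried 1 *Notch2*tm1.1Ecan allele, and from littermates that were wild type. The allele introduces a stop codon ahead of the PEST domain, the stretch that marks NOTCH2 for degradation, and it is present in every cell of the animal and not in cartilage alone. Confluent cultures were exposed for 6 h to PBS as vehicle or to tumor necrosis factor α (TNFα) at 50 ng/ml, so that there were 4 groups of 4 libraries each, namely wild type vehicle, *Notch2* mutant vehicle, wild type TNFα and *Notch2* mutant TNFα. The sample annotation gives serum removal for the TNFα groups alone, whereas the study's description of these cultures gives it for vehicle as well, so TNFα and serum removal cannot be told apart if the annotation is right. The design asks how the genotypes differ under each treatment, how TNFα changes expression in each genotype, and whether the response to TNFα differs between genotypes.

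As background, chondrocytes of the growth cartilage stop dividing, enlarge and lay down a matrix of type X collagen that is later mineralized. Indian hedgehog from prehypertrophic cells and parathyroid hormone related peptide, which acts through the receptor PTH1R, form a loop that sets when cells leave the proliferating pool, and RUNX2 and SP7 (osterix) are transcription factors that drive the later steps. Mineral forms with the help of phosphatases such as tissue nonspecific alkaline phosphatase and PHOSPHO1, in a matrix that holds the acidic phosphoproteins osteopontin and bone sialoprotein. In bulk RNA a smaller number of expressing cells and less RNA per cell cannot be told apart.

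The libraries held from 3439726 to 44237300 counts on genes, and the shallowest was *Notch2* mutant TNFα replicate 4 and the deepest *Notch2* mutant vehicle replicate 4. 3 libraries stood farthest apart on the first 2 principal components, 2 of them wild type. On the first principal component, with 78.5% of the variance, wild type vehicle replicate 4 lay at -13.5 while the other 7 vehicle libraries lay between -61.7 and -58.3, and wild type TNFα replicate 4 lay at 42.8 while the other TNFα libraries lay between 54.4 and 58.2. On the second component, with 6.71% of the variance, *Notch2* mutant TNFα replicate 4 lay at -36.0 while the other libraries of its group lay between -11.8 and -10.9. *Icam1*, an adhesion molecule induced by TNFα, was at 439 CPM (counts scaled to the library total) in wild type vehicle replicate 4 and at 34.4 to 40.4 in the other wild type vehicle libraries. Calls that changed without one of these 3 libraries are given with and without it. Leaving out *Notch2* mutant TNFα replicate 4 changed 1 call among the 10 genes, that of *Panx3* between genotypes with TNFα. To a smaller degree *Notch2* mutant vehicle replicate 1 also lay apart, at -17.4 on the second component while the others of its group lay between -12.4 and -10.7. Without it the calls between genotypes with vehicle went from 2048 of 19432 genes to 2666 of 19230, and *Sp7* was added, as given below. *Heyl*, a Notch target, was higher in mutant cells with vehicle (log2 fold change 3.04) and with TNFα (2.46), whereas *Notch2* itself was at 130 ± 19.7 CPM in wild type and 152 ± 13.5 CPM in mutant vehicle libraries (SD, n = 4). With TNFα *Notch2* was at 129 to 188 CPM in wild type and 209 to 240 CPM in mutant libraries. Of 5 genes, *Notch2* and 4 Notch targets, 3 were called higher in mutant cells with vehicle, against 6.19% of all genes, and 2 with TNFα, against 5.63%. Without replicate 4 of both wild type groups 3 were called higher under each treatment.

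The cells carried cartilage transcripts. *Col2a1* was at 37601 ± 1614 CPM in wild type vehicle libraries (SD, n = 4), and the 12 chondrocyte markers summed to 45763 to 49925 CPM there, 28973 to 34052 in mutant vehicle, 34008 to 39952 in wild type TNFα and 18547 to 20919 in mutant TNFα libraries. Each of the 12 was lower in mutant cells under both treatments. Without replicate 4 of both wild type groups 11 passed with vehicle and 12 with TNFα, and *Hapln1* with vehicle did not (-0.69, adjusted p = 0.0885). Of the 9 osteoblast and osteocyte markers, *Mepe*, *Sost*, *Ifitm5*, *Bglap* and *Bglap2* averaged under 1 CPM in each group, as did *Dmp1*. *Phex* averaged 1.38, 1.63, 0.931 and 1.70 CPM in wild type vehicle, mutant vehicle, wild type TNFα and mutant TNFα libraries, and *Col1a1*, which fibroblasts also express, was at 13836 ± 752 CPM in wild type vehicle libraries. The 15 macrophage markers summed to 75.1 to 81.4 CPM in wild type and 141 to 165 CPM in mutant vehicle libraries, and with TNFα their medians were 95.7 and 199 CPM. The 5 smooth muscle markers also moved with both factors, with summed medians of 2146 CPM in wild type vehicle, 4054 in mutant vehicle, 1067 in wild type TNFα and 2072 in mutant TNFα libraries. Summed medians in the same order of groups were 27.4, 43.6, 14.5 and 25.5 CPM for the 6 skeletal muscle markers and 9.005, 18.2, 11.0 and 21.8 CPM for the 5 endothelial markers. Those of the 9 osteoblast and osteocyte markers, *Col1a1* among them, were 25609, 29050, 24322 and 30522 CPM. The 8 fibroblast and perichondrium markers had summed medians of 7675, 9115, 8498 and 10454 CPM, and the 7 osteoclast markers of 191, 191, 188 and 188 CPM. The part of these other transcripts in the differences below was not tested.

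TNFα moved most of the 10 genes, nearly always downward. In wild type cells 8 of the 10 fell and *Spp1* rose, and *Col10a1* did not pass the test, at an adjusted p under 0.05. All adjusted p-values are from the quasi-likelihood test of edgeR, adjusted across the genes tested by the method of Benjamini and Hochberg, unless DESeq2 is named. The same threshold was passed by 44.2% of the 19338 genes tested, with 20.9% lower and 23.3% higher. In *Notch2* mutant cells 6 of the 10 fell and *Spp1* rose, against 44.5% of 19633 genes, with 21.9% lower and 22.6% higher. A log2 fold change of at least 1 either way was passed besides by 6 of the 10 genes in wild type cells, against 11.8% of all genes, and by 4 in mutant cells, against 13.9%. The median log2 fold change of the 10 genes was -1.33 in wild type and -1.06 in mutant cells, and that of all genes tested was 0.04 and 0.03. The wild type groups did not overlap for 9 of the 10 genes and the mutant groups for 6, as was so for 41.8 and 40.2% of all genes.

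**Figure D1:**
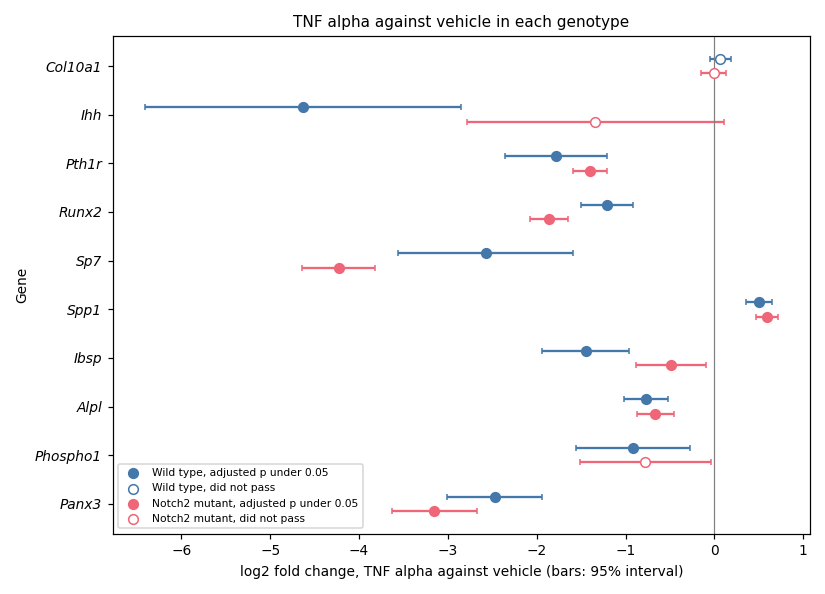
Log2 fold change of the 10 genes with TNFα against vehicle, for wild type (blue) and *Notch2* mutant cells (red), with 95% intervals and filled points for an adjusted p under 0.05. *Spp1* lies to the right of 0 in both genotypes, *Col10a1* at 0, and *Sp7* and *Panx3* lie below -2.4 in both. The fitted value of *Ihh* rests on very few counts.

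Between genotypes the differences were smaller and ran both ways. With vehicle 6 of the 10 genes passed the test, against 10.5% of 19432 genes, of which 3 were higher, against 6.19%, and 3 lower, against 4.35%. *Pth1r*, *Runx2* and *Alpl* were higher and *Spp1*, *Ibsp* and *Panx3* lower in mutant cells, and 0 of the 10 also had a log2 fold change of at least 1 either way, against 1.26% of all genes. With TNFα 3 of the 9 genes tested passed, *Alpl* higher and *Spp1* and *Panx3* lower, against 9.94% of 19227 genes, with 5.63% higher and 4.31% lower, and *Ihh* had too few counts to be tested. *Panx3* alone also had a log2 fold change of at least 1 either way, against 1.41% of all genes. The median log2 fold change of the 10 genes was -0.21 with vehicle, and that of the 9 tested was -0.18 with TNFα. With vehicle the genotypes did not overlap for 6 of the 10 genes, against 16.2% of all genes, and with TNFα for *Spp1* among the 9 tested, against 14.8%.

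**Figure D2:**
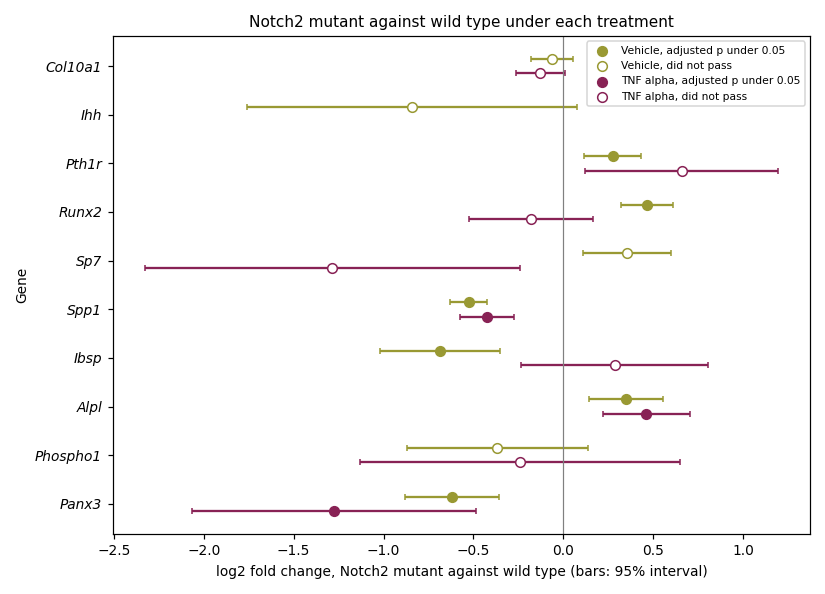
Log2 fold change of the 10 genes in *Notch2* mutant against wild type cells, with vehicle (olive) and with TNFα (purple), with 95% intervals and filled points for an adjusted p under 0.05. *Pth1r*, *Runx2* and *Alpl* lie to the right of 0 with vehicle, *Spp1* and *Panx3* lie to the left under both treatments, and *Ihh* has no value with TNFα.

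The genotype by TNFα interaction, which tests whether the response to TNFα differs between genotypes, passed the threshold for 0 of the 10 genes with edgeR, against 0.474% of 21321 genes. At an unadjusted p under 0.05 there were 4 genes (*Ihh*, *Runx2*, *Sp7* and *Ibsp*), against 8.71% of all genes, and DESeq2 called 1, *Runx2*, against 206 of 21321 genes. The differences between the genotypes' responses that are visible in single genes below are therefore given with the interaction value and its 95% interval. The calls of this test moved with the filter on low counts and with single libraries. With no filter beyond 1 count 3 of the 10 genes passed, against 266 of 28572 genes. They were *Runx2* (adjusted p = 0.000131), *Sp7* (-1.66, adjusted p = 0.000274) and *Ibsp* (0.95, adjusted p = 0.0245), while *Ihh* did not pass (adjusted p = 0.370).

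Levels were compared between genes per kilobase of exon. In wild type vehicle libraries *Spp1* was the highest, at 419 ± 18.5 CPM per kb (SD, n = 4), followed by *Col10a1* at 21.9 ± 0.672, *Pth1r* at 5.86 ± 0.429 and *Alpl* at 4.41 ± 0.556. *Ibsp* at 3.66 ± 0.719, *Runx2* at 3.39 ± 0.315, *Panx3* at 3.03 ± 0.454 and *Sp7* at 2.51 ± 0.401 CPM per kb came next, and from *Alpl* to *Sp7* the ranges of neighbours overlapped. *Phospho1* at 0.273 ± 0.0357 and *Ihh* at 0.182 ± 0.0342 CPM per kb were the lowest. In mutant vehicle libraries *Runx2* at 4.68 ± 0.198 and *Sp7* at 3.19 ± 0.379 CPM per kb stood above *Ibsp* at 2.26 ± 0.404. With TNFα, *Panx3* and *Sp7* came down to 0.530 ± 0.271 and 0.420 ± 0.301 CPM per kb in wild type and to 0.222 ± 0.102 and 0.178 ± 0.0449 in mutant libraries.

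**Figure D3:**
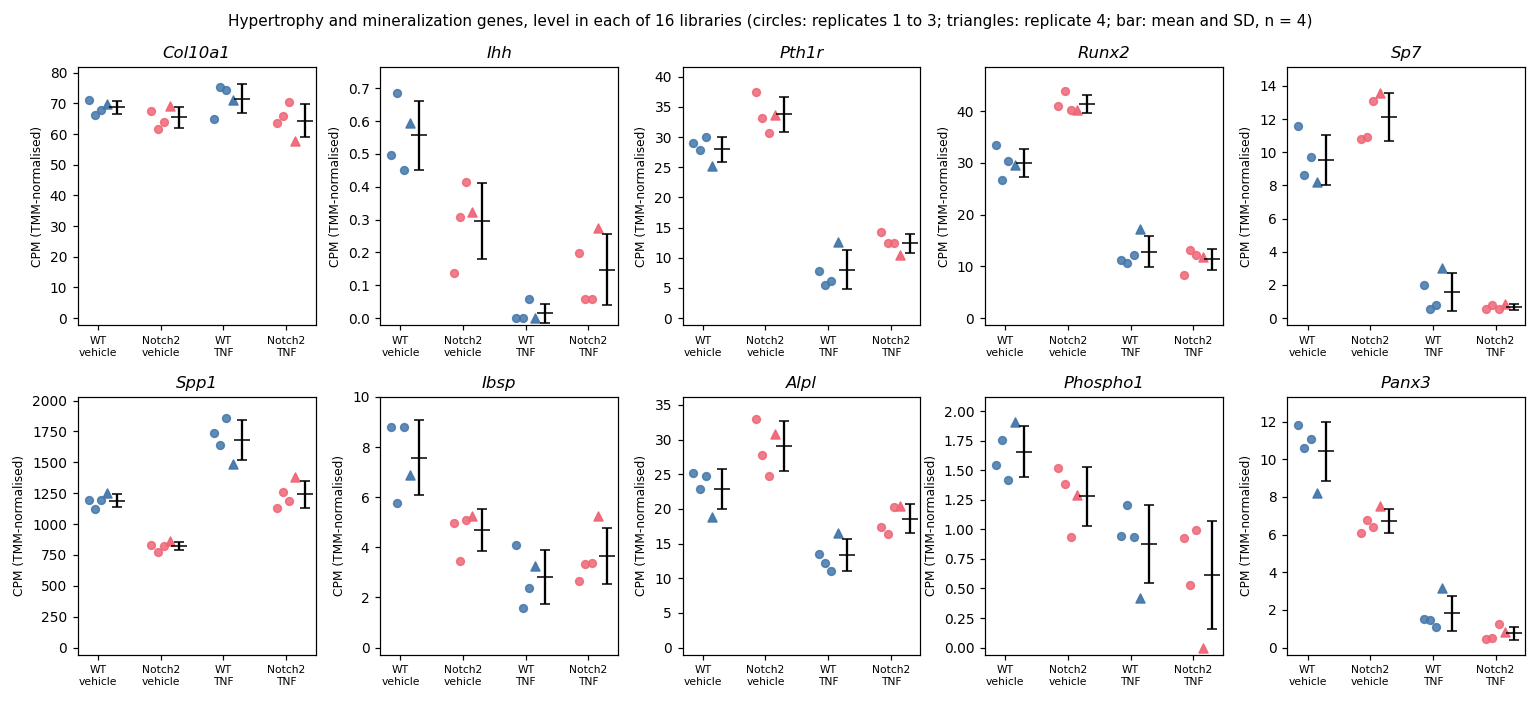
Level of each of the 10 genes in CPM in the 16 libraries, by group, with wild type in blue and *Notch2* mutant in red. Triangles are replicate 4 and the bar is the mean and SD of 4 libraries, and among the wild type TNFα libraries replicate 4 is the highest for *Pth1r* (12.6), *Runx2* (17.2), *Sp7* (3.03), *Alpl* (16.5) and *Panx3* (3.19).

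*Ihh* (chr1:74984474-74990837, minus strand, GRCm39), the hedgehog ligand of prehypertrophic chondrocytes, was near the limit of detection. Its level in replicates 1 to 4 was 0.497, 0.685, 0.450 and 0.595 CPM in wild type vehicle libraries and 0.138, 0.308, 0.415 and 0.322 CPM in mutant vehicle libraries. After TNFα it was 0, 0, 0.0583 and 0 CPM in wild type and 0.199, 0.0585, 0.0585 and 0.276 CPM in mutant libraries. The wild type vehicle libraries lay above all the others, and the wild type TNFα libraries held 1 count in all. TNFα lowered *Ihh* in wild type cells from 35 counts to 1 (adjusted p = 0.000116), a ratio of 37.0 to 1 scaled to depth with a 95% counting interval of 6.22 to 1503. In mutant cells 30 counts with vehicle stood against 6 with TNFα, a ratio of 2.74 (1.12 to 8.04), and the test was not passed (adjusted p = 0.131). Mutant against wild type with vehicle did not pass either (log2 fold change -0.84, adjusted p = 0.284). The interaction was 3.33 on the log2 scale (0.85 to 5.82, adjusted p = 0.320), and at 1 count in wild type TNFα libraries its size is poorly fixed. Intervals on counts cover counting error alone.

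*Pth1r* (chr9:110550767-110576259, minus strand), which encodes the receptor for parathyroid hormone and its related peptide, fell with TNFα in both genotypes. It was at 29.0, 27.8, 29.98 and 25.2 CPM in wild type vehicle and 37.5, 33.1, 30.7 and 33.7 CPM in mutant vehicle libraries. Under TNFα the level was at 7.80, 5.54, 6.18 and 12.6 CPM in wild type and 14.2, 12.4, 12.5 and 10.5 CPM in mutant libraries. TNFα lowered it in wild type cells (log2 fold change -1.78 ± 0.24 SE, adjusted p = 0.000788) and in mutant cells (-1.40 ± 0.09, adjusted p = 9.38e-13). With vehicle it was higher in mutant cells (0.27 ± 0.08, adjusted p = 0.0204), but the call was lost without wild type vehicle replicate 2 (adjusted p = 0.0603), wild type vehicle replicate 4 (0.22, adjusted p = 0.0714) or mutant vehicle replicate 4 (adjusted p = 0.0700), and in a fit to all 16 libraries (adjusted p = 0.362).

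With TNFα the groups overlapped in *Pth1r* through wild type replicate 4 alone. The genotype difference was 0.66 on the log2 scale (0.12 to 1.20) and did not pass (adjusted p = 0.137). Without wild type TNFα replicate 4 it was 0.98 (adjusted p = 1.02e-05), and DESeq2 on all the libraries gave an adjusted p of 0.0150. The interaction was 0.39 (-0.17 to 0.94, adjusted p = 0.732), and it was 0.72 (adjusted p = 0.0129) without wild type TNFα replicate 4 and 0.77 (adjusted p = 0.00370) without replicate 4 of both wild type groups. *Icam1* in that TNFα library was at 2312 CPM and in the other wild type TNFα libraries at 2589 to 2827 CPM, and its part in the difference was not tested.

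The rest of the hedgehog and parathyroid hormone related peptide pathway was read from a list of 13 genes. With TNFα 4 rose and 6 fell among 12 tested in wild type cells, and 4 rose and 6 fell among 13 in mutant cells, with median log2 fold changes of -0.19 and -0.22. Among all genes 23.3% rose and 20.9% fell in wild type cells, and 22.6% and 21.9% in mutant cells. *Pthlh*, the ligand of PTH1R, rose while its receptor fell. It was at 0.0553, 0.0761, 0 and 0.417 CPM in wild type vehicle and 3.15, 1.59, 2.21 and 2.30 CPM in wild type TNFα libraries (log2 fold change 3.95, adjusted p = 1.53e-06). In mutant cells it went from 0, 0.103, 0.363 and 0.0920 CPM to 3.91, 2.63, 3.16 and 3.03 CPM (4.49, adjusted p = 4.80e-10). The TNFα libraries did not overlap the vehicle libraries in either genotype, at a low level throughout. Without replicate 4 of both wild type groups the wild type value of *Pthlh* was 5.50 (adjusted p = 1.04e-08), with 1 count or 0 in each vehicle library left. *Ptch1*, the hedgehog receptor, fell in wild type (-1.20, adjusted p = 1.06e-05) and mutant cells (-1.38, adjusted p = 1.74e-13). The co-receptor *Boc* fell as well (-1.14 and -1.22), and *Hhip*, a hedgehog binding protein, rose (0.58 and 0.76). *Gas1*, another co-receptor, was lower in mutant cells with vehicle (-0.47, adjusted p = 2.84e-06) and TNFα (-0.41, adjusted p = 1.81e-05). Between genotypes 3 of the 13 genes were lower and 0 higher in mutant cells with vehicle, and 3 lower and 1 higher with TNFα. Without replicate 4 of both wild type groups these were 4 and 0, and 2 and 1. Among all genes 10.5 and 9.94% were called either way.

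*Runx2* (chr17:44806874-45125684, minus strand), a transcription factor of hypertrophy and of osteoblasts, was higher in mutant cells with vehicle and fell with TNFα in both genotypes. It was at 33.4, 26.6, 30.3 and 29.6 CPM in wild type vehicle and 40.9, 43.9, 40.2 and 40.3 CPM in mutant vehicle libraries. In the presence of TNFα it was at 11.2, 10.7, 12.2 and 17.2 CPM in wild type and 8.41, 13.1, 12.2 and 11.9 CPM in mutant libraries. The vehicle groups did not overlap each other and the TNFα groups did. With vehicle it was higher in mutant cells (log2 fold change 0.47 ± 0.07 SE, adjusted p = 5.62e-05), with an adjusted p of at most 0.000740 when any 1 library was left out. With TNFα the difference was -0.18 (-0.52 to 0.17, adjusted p = 0.592). TNFα lowered *Runx2*, with a log2 fold change of -1.21 ± 0.13 in wild type (adjusted p = 1.09e-05) and -1.86 ± 0.10 in mutant cells (adjusted p = 2.27e-14).

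The interaction for *Runx2* was -0.65 (-1.04 to -0.26), with an unadjusted p of 0.00244 and an adjusted p of 0.189. DESeq2 gave an adjusted p of 0.0452, and the same edgeR fit with no filter beyond 1 count gave 0.000131. Leaving out any 1 library left it between -0.75 and -0.46, with adjusted p from 0.0952 to 0.273. *Supt3* overlaps *Runx2* on the opposite strand and held 3781 counts against 7378 for *Runx2* over all libraries, and the strand setting of the counting is not given in the sources used here.

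The promoter of *Runx2* is shown because the letters TGTGGT, a core that RUNX proteins bind, occur in it more often than in most promoters. It covers chr17:44814578-44814877 on the minus strand of GRCm38.p6, from 250 bases before to 50 bases after a RefSeq start site, 5′ to 3′, with matches on either strand in capitals.
Runx2: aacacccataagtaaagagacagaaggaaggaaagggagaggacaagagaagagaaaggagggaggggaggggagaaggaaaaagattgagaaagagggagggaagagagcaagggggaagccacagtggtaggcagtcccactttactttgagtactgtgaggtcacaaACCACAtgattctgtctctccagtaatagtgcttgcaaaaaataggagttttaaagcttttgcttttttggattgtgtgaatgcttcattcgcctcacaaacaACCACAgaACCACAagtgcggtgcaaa
The 3 matches lie on the opposite strand and begin at -80, 24 and 32, where 1 is the first transcribed base. Of 32851 mouse promoters of this length, 16.8% held at least 1 match and 60 (0.183%) held 3 or more. RefSeq promoters were at hand for 8 of the 10 genes, with 12 start sites, and *Runx2* and *Spp1* had a match. A match is a run of letters and says nothing of binding in these cells.

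*Sp7* (chr15:102265038-102279370, minus strand), the factor osterix, had the largest fall of the set in mutant cells. It was at 11.6, 8.60, 9.72 and 8.21 CPM in wild type vehicle and 10.8, 10.9, 13.1 and 13.6 CPM in mutant vehicle libraries. With TNFα it was at 1.97, 0.549, 0.816 and 3.03 CPM in wild type and 0.530, 0.819, 0.526 and 0.828 CPM in mutant libraries. The vehicle and TNFα libraries were far apart in both genotypes, and wild type replicates 1 and 4 with TNFα lay above every mutant TNFα library. TNFα lowered *Sp7*, with a log2 fold change of -4.23 ± 0.20 in mutant cells (adjusted p = 3.77e-16) and -2.58 ± 0.41 in wild type cells (adjusted p = 0.00165). Without wild type TNFα replicate 4 the wild type change was -3.21 (adjusted p = 2.79e-07).

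Between genotypes *Sp7* did not pass with vehicle (0.35, adjusted p = 0.0584) or with TNFα (-1.28, adjusted p = 0.128). With vehicle it passed without wild type vehicle replicate 1 (0.46, adjusted p = 0.0201) or mutant vehicle replicate 1 (0.40, adjusted p = 0.0195). With TNFα it passed without wild type TNFα replicate 2 (-1.59, adjusted p = 0.0110) or replicate 3 (-1.52, adjusted p = 0.0461), both of them libraries with little *Sp7*. Without wild type TNFα replicate 4, the library with the most, it was -0.72 (adjusted p = 0.378). The interaction was -1.65 (-2.83 to -0.46, adjusted p = 0.319), and it ranged from -1.95 without wild type TNFα replicate 2 (adjusted p = 0.0320) to -1.03 without replicate 4 of that group (adjusted p = 0.425). At 34 counts over the 4 mutant TNFα libraries the depth limits this value.

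Of 18 other transcriptional regulators of hypertrophy, TNFα lowered 11 and raised 3 in wild type cells and lowered 9 and raised 3 in mutant cells, with medians of -0.24 and -0.45, against 20.9 and 21.9% of all genes lower and 23.3 and 22.6% higher. *Sox9*, the factor of early chondrocytes, had a log2 fold change of -1.44 in wild type (adjusted p = 0.000937) and -1.92 in mutant cells (adjusted p = 3.30e-18). *Mef2c*, which drives hypertrophy and *Col10a1*, fell from 20.4 ± 1.98 to 9.96 ± 1.49 CPM in wild type cells (SD, n = 4 each) and from 20.7 ± 3.35 to 9.82 ± 1.87 CPM in mutant cells. *Runx3*, which acts beside RUNX2, was lower in mutant cells with vehicle (-0.65, adjusted p = 0.000100) and with TNFα (-0.50, adjusted p = 0.0166), so the 2 RUNX genes stood on opposite sides in vehicle cells. Without replicate 4 of the wild type group the second of these was -0.41 (adjusted p = 0.0591). *Sik3*, a kinase that acts on the repressor HDAC4, rose in wild type (0.26, adjusted p = 0.000636) and mutant cells (0.68, adjusted p = 3.69e-07). Its interaction was 0.43 (adjusted p = 0.0465), and 0.41 (adjusted p = 0.0882) without replicate 4 of both wild type groups. Between genotypes 3 of the 18 were lower and 0 higher in mutant cells under each treatment, against 10.5 and 9.94% of all genes called either way. Without replicate 4 of both wild type groups 3 were lower with vehicle and 1 with TNFα. *Sox9* was lower with vehicle (-0.42, adjusted p = 3.68e-06) and with TNFα (-0.89, adjusted p = 0.0490).

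*Col10a1* (chr10:34265971-34273081, plus strand), which encodes the type X collagen that marks hypertrophic chondrocytes, passed the test in none of the 5 comparisons. It was at 71.1, 66.3, 67.8 and 69.7 CPM in wild type vehicle and 67.4, 61.6, 63.8 and 69.2 CPM in mutant vehicle libraries. Under TNFα the level was at 65.0, 75.3, 74.4 and 71.2 CPM in wild type and 63.7, 65.9, 70.4 and 57.7 CPM in mutant libraries. All 4 groups overlapped. The log2 fold change with TNFα was 0.06 in wild type (-0.05 to 0.18, adjusted p = 0.385) and -0.01 in mutant cells (-0.15 to 0.13, adjusted p = 0.936). Mutant against wild type was -0.06 with vehicle (-0.18 to 0.06, adjusted p = 0.600) and -0.13 with TNFα (-0.26 to 0.01, adjusted p = 0.276), and the interaction was -0.07 (-0.25 to 0.11, adjusted p = 0.889). None of these intervals reached the size of the TNFα changes in *Runx2* or *Sp7*. *Col10a1* lies inside *Nt5dc1*, a gene of the opposite strand that held 2829 counts against 19138 for *Col10a1*.

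*Spp1* (chr5:104582165-104589235, plus strand), which encodes osteopontin, was the most abundant of the 10 genes and the one that rose. It was at 1197, 1120, 1196 and 1248 CPM in wild type vehicle and 829, 777, 823 and 861 CPM in mutant vehicle libraries. In the presence of TNFα it was at 1738, 1636, 1860 and 1484 CPM in wild type and 1132, 1262, 1186 and 1378 CPM in mutant libraries. No mutant library reached a wild type library of the same treatment, and no TNFα library came down to the vehicle libraries of its genotype. The log2 fold change with TNFα was 0.50 ± 0.07 SE in wild type (adjusted p = 0.000108) and 0.59 ± 0.06 in mutant cells (adjusted p = 8.18e-09). Mutant cells had less *Spp1* with vehicle (-0.53 ± 0.05, adjusted p = 6.78e-08) and with TNFα (-0.42 ± 0.07, adjusted p = 0.000228). The interaction was 0.09 (-0.08 to 0.27, adjusted p = 0.822). These 4 calls held with any 1 library left out.

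*Ibsp* (chr5:104447037-104459338, plus strand), which encodes bone sialoprotein and lies upstream of *Spp1* in the same gene cluster, moved the other way with TNFα. It was at 8.79, 5.79, 8.81 and 6.90 CPM in wild type vehicle and 4.96, 3.44, 5.08 and 5.25 CPM in mutant vehicle libraries. After TNFα it was at 4.10, 1.59, 2.39 and 3.24 CPM in wild type and 2.65, 3.33, 3.39 and 5.24 CPM in mutant libraries. The wild type vehicle libraries lay above the other 12. TNFα lowered *Ibsp* in wild type cells, with a log2 fold change of -1.45 ± 0.23 (adjusted p = 9.28e-05). In mutant cells the log2 fold change was -0.49 ± 0.19 (adjusted p = 0.0370), and it was lost without mutant vehicle replicate 3 (-0.46) or 4 (-0.41), without mutant TNFα replicate 1 (-0.37), 2 (-0.48) or 3 (-0.50), and by DESeq2 (adjusted p = 0.0797), with adjusted p of up to 0.165. With vehicle it was lower in mutant cells (-0.69 ± 0.16, adjusted p = 0.00560), and with TNFα the difference was 0.29 (-0.24 to 0.81, adjusted p = 0.574). The interaction was 0.96 (0.33 to 1.60), with an unadjusted p of 0.00428 and an adjusted p of 0.230.

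The promoters of *Spp1* and *Ibsp* are shown side by side because the 2 genes lie in the same gene cluster, with *Mepe* between them, and moved apart with TNFα in wild type cells. They are on the plus strand of GRCm38.p6, at chr5:104434861-104435160 and chr5:104299037-104299336, each from 250 bases before to 50 bases after the start site, with TGTGGT or its complement in capitals.
Spp1: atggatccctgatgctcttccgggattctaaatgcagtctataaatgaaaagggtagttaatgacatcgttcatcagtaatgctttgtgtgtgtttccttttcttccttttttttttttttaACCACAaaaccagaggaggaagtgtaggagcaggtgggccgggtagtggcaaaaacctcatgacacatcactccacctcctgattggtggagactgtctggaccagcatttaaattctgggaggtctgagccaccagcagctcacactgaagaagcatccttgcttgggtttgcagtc
Ibsp: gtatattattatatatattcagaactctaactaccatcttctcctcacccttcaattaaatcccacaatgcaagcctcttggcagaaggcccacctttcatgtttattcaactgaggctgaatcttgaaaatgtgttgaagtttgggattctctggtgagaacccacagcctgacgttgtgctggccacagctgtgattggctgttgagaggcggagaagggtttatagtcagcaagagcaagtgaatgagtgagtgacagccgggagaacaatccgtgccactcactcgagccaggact
The match in *Spp1* begins at -128 on the opposite strand. The *Ibsp* window and a second start site of *Spp1* held none, which says only that these letters are not in those windows. Among the genes around them on chromosome 5, *Dspp* and *Mepe* had at most 4 counts in a library, *Dmp1* was at 0.558 ± 0.276 CPM in wild type vehicle libraries with no change that passed, and *Pkd2*, next to *Spp1*, rose by 0.16 in wild type cells (adjusted p = 0.0105). In mutant cells *Pkd2* was at 0.12 (adjusted p = 0.143).

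Other motifs were also searched on both strands. The letters TGGGAA, the core of the site of CSL, the DNA-binding partner of Notch, had 1 match, at -115 in *Col10a1*, and occurred in 25.6% of all promoters. The letters TGANTCA, an AP-1 core, had 1 match, at -224 in *Phospho1*, and occurred in 7.81%. Neither matched in the other promoters of the set.

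*Alpl* (chr4:137469039-137524102, minus strand), which encodes the phosphatase that breaks down pyrophosphate, was lowered by TNFα and higher in mutant cells. It was at 25.2, 22.8, 24.8 and 18.9 CPM in wild type vehicle and 33.0, 27.7, 24.7 and 30.8 CPM in mutant vehicle libraries. With TNFα it was at 13.6, 12.2, 11.1 and 16.5 CPM in wild type and 17.3, 16.3, 20.3 and 20.4 CPM in mutant libraries. TNFα and vehicle did not overlap in either genotype, while the genotypes overlapped under both treatments. With TNFα its log2 fold change was -0.77 ± 0.12 in wild type (adjusted p = 3.84e-05) and -0.66 ± 0.10 in mutant cells (adjusted p = 2.95e-06). With vehicle it was higher in mutant cells (0.35 ± 0.10, adjusted p = 0.0277), and the call was lost without wild type vehicle replicate 2 (adjusted p = 0.0798), wild type vehicle replicate 4 (0.25, adjusted p = 0.0757) or mutant vehicle replicate 4 (0.31, adjusted p = 0.119). With TNFα it was higher by 0.46 ± 0.12 (adjusted p = 0.00964), and the call was lost without wild type TNFα replicate 3 (0.37, adjusted p = 0.0556) or mutant TNFα replicate 3 (0.39, adjusted p = 0.0775). The interaction was 0.11 (-0.23 to 0.45, adjusted p = 0.906).

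*Phospho1* (chr11:95715264-95722973, plus strand), a phosphatase of matrix vesicles, was scarce. It was at 1.55, 1.75, 1.42 and 1.904 CPM in wild type vehicle and 1.52, 1.39, 0.934 and 1.29 CPM in mutant vehicle libraries. In the presence of TNFα it was at 0.945, 1.21, 0.933 and 0.418 CPM in wild type and 0.927, 0.526, 0.994 and 0 CPM in mutant libraries. The 0 is in the shallowest library, where 3 counts would be 0.872 CPM before normalization. TNFα lowered *Phospho1* in wild type cells (-0.92 ± 0.31, adjusted p = 0.0184), but the call was lost without wild type TNFα replicate 4 (-0.67, adjusted p = 0.0684). In mutant cells the value was -0.78 (-1.51 to -0.04, adjusted p = 0.0807). Neither genotype comparison passed, with -0.37 for vehicle (adjusted p = 0.426) and -0.24 for TNFα (adjusted p = 0.815), and the interaction was 0.15 (-0.84 to 1.14). *Phospho1* lies inside *Zfp652* on the same strand, which held 13187 counts against 326 for *Phospho1*, so its values are uncertain if reads were split between them.

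*Panx3* (chr9:37571198-37580531, minus strand), which encodes a channel of prehypertrophic chondrocytes, was lower in mutant cells and fell with TNFα. It was at 11.8, 10.6, 11.1 and 8.21 CPM in wild type vehicle and 6.06, 6.77, 6.43 and 7.55 CPM in mutant vehicle libraries. After TNFα it was at 1.497, 1.48, 1.11 and 3.19 CPM in wild type and 0.463, 0.526, 1.23 and 0.828 CPM in mutant libraries. The genotypes were apart with vehicle and overlapped by 1 library on each side with TNFα. Its log2 fold change with TNFα was -2.47 ± 0.25 in wild type (adjusted p = 2.41e-06) and -3.15 ± 0.23 in mutant cells (adjusted p = 8.99e-12). With vehicle it was lower in mutant cells (-0.62 ± 0.13, adjusted p = 0.00146), also with any 1 library left out. With TNFα the genotype difference was -1.28 ± 0.38 (adjusted p = 0.0322), and the call was lost without wild type TNFα replicate 4 (-0.85, adjusted p = 0.183) or mutant TNFα replicate 1 (-1.07, adjusted p = 0.140), 2 (-1.10, adjusted p = 0.128) or 4 (-1.30, adjusted p = 0.0508). The interaction was -0.67 (-1.48 to 0.14, adjusted p = 0.682).

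Of 17 other genes of mineral deposition and its inhibitors, 16 could be tested. With TNFα 4 rose and 5 fell in wild type cells and 3 rose and 4 fell in mutant cells, with medians of -0.03 and -0.04. These 9 and 7 of 16 were near the 44.2 and 44.5% called among all genes. *Slc20a1*, a phosphate transporter, rose by 1.86 in wild type cells (adjusted p = 0.000199) and from 83.3 ± 2.69 to 234 ± 14.6 CPM in mutant cells (SD, n = 4 each, adjusted p = 2.58e-17), and *Bmp2*, a ligand that drives bone formation, rose by 2.37 and 2.48. *Smpd3*, a sphingomyelinase needed for mineralization, fell, with -1.59 (adjusted p = 7.04e-09) and -1.66 (adjusted p = 7.82e-12). Between genotypes 2 were higher and 3 lower in mutant cells with vehicle, and 2 higher and 4 lower with TNFα, against 10.5 and 9.94% of all genes called either way. *Enpp1*, which makes pyrophosphate, differed by -0.48 with vehicle (adjusted p = 1.56e-05). *Ank*, which exports it, differed by -0.25 with vehicle (adjusted p = 0.00164) and -0.38 with TNFα (adjusted p = 8.33e-05). *Slc20a1* differed by -0.60 with TNFα (adjusted p = 9.87e-07). *Nt5e*, which acts on nucleotides outside the cell, differed by -0.72 with vehicle (adjusted p = 1.79e-08) and -0.999 with TNFα (adjusted p = 1.79e-09). *Mgp*, an inhibitor of mineralization, was higher by 0.41 (adjusted p = 1.86e-06) and 0.35 (adjusted p = 0.000151).

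In the 8 genes of hypertrophic matrix remodelling TNFα raised 5 and lowered 2 in wild type cells, and raised 5 and lowered 3 in mutant cells, against 23.3 and 22.6% of all genes higher and 20.9 and 21.9% lower. *Mmp13*, the collagenase of late hypertrophic cartilage, rose by 2.39 in wild type (adjusted p = 0.000287) and 3.19 in mutant cells (adjusted p = 6.80e-11). *Mmp9*, a gelatinase, rose by 4.36 (adjusted p = 0.00170) and 4.73 (adjusted p = 3.02e-22). Of its 136 counts in wild type vehicle libraries 112 were in replicate 4, and without replicate 4 of both wild type groups its rise in wild type cells was 6.45 (adjusted p = 1.16e-23) and that of *Mmp13* was 2.71 (adjusted p = 5.52e-27). *Adamts1*, a protease of proteoglycans, fell, with -1.33 and -1.46. The medians of this list were 0.19 and 0.29 and those of the 10 genes -1.33 and -1.06, and the difference between the lists was not tested. Between genotypes 3 of the 8 were higher and 1 lower in mutant cells with vehicle, and 2 higher and 2 lower with TNFα. Without replicate 4 of both wild type groups these were 4 and 2, and 3 and 2. Among all genes 10.5 and 9.94% were called either way. *Adamts4* was higher with vehicle (0.52, adjusted p = 0.00794) and TNFα (0.38, adjusted p = 0.00414), and *Vegfa* lower with TNFα (-0.30, adjusted p = 0.00483).

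**Figure D4:**
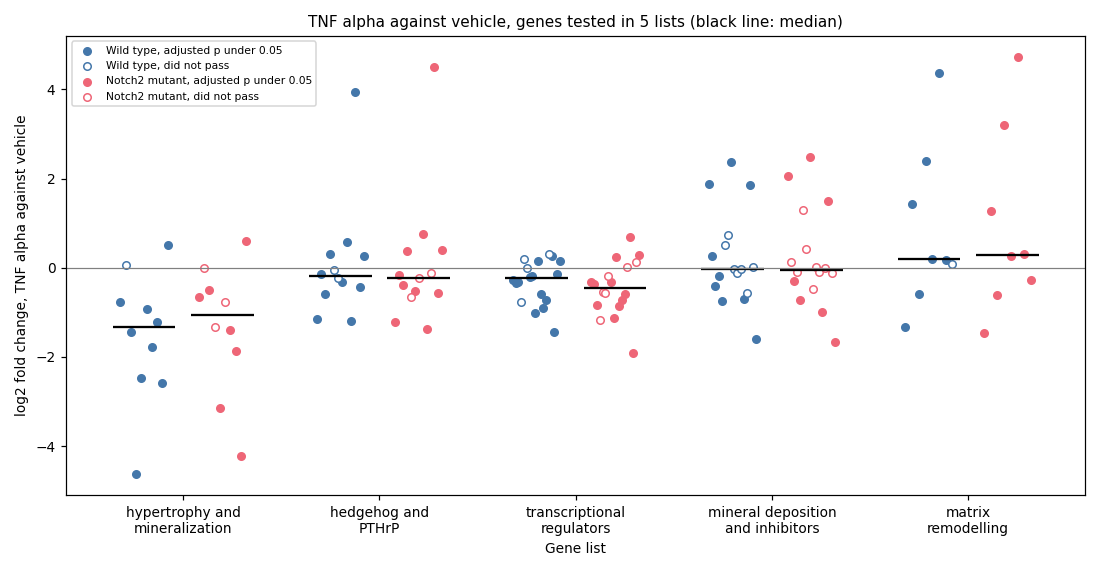
Log2 fold change with TNFα against vehicle for the genes tested in 5 lists, for wild type (blue) and *Notch2* mutant cells (red), with filled points for an adjusted p under 0.05 and a black line at the median. The medians of the 10 hypertrophy and mineralization genes are -1.33 and -1.06, and those of the matrix remodelling list are 0.19 and 0.29.

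The genes whose pattern over the 16 libraries was most like a member were taken by the root mean square difference in centred log2 CPM among 13431 genes. Nearest to *Runx2* was *Nkd1* (0.151), an antagonist of Wnt signaling, and nearest to *Spp1* was *Maf* (0.0943), a transcription factor. Nearest to *Panx3* were *Gdf10* (0.293), *Kcns1* (0.313) and *Fgfr3* (0.327), the last a receptor of growth plate chondrocytes. *Sp7* was nearest to *Atoh8* (0.351), *Npr3* (0.368) and *Ccn2* (0.404), *Alpl* to *Pdlim7* (0.123) and *Pth1r* to *Gm8399* (0.205). *Col10a1* was nearest to *Vars2* (0.0548), *Ibsp* to *Hspd1-ps3* (0.331) and *Phospho1* to *Gm10734* (0.480). These values are descriptions and carry no test.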

How the data were processed

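RNA of 16 samples was sequenced as stranded, paired-end libraries. The deposited counts are whole read counts per gene, made by the authors by trimming with Trimmomatic 0.39, aligning with HISAT2 and counting with htseq-count 0.11.0. The submitters' processing notes give GRCm38 and HISAT2 2.1.0, and the study's methods GRCm39 and HISAT2 2.2.1. The strand setting is not given in the sources used here.

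Counts were used as deposited. The 5 rows that name no gene (8.81 to 12.1% of a library) were left out. Identifiers were matched to GENCODE M39 (54749 of 55414). Each comparison was fitted to its own 8 libraries, and the interaction to all 16, with edgeR 4.0.16 (R 4.3.3), TMM normalization, the quasi-likelihood test and Benjamini-Hochberg adjustment over all genes tested, without covariates. CPM values use TMM library sizes. The study's own fit had covariates that are not named. Alternatives were DESeq2 1.42.0, other filters, a replicate block, a fit to all libraries and leaving out each library. The scripts were tested on simulated data. Promoters and their motif counts came from RefSeq (GRCm38.p6). The genes and lists were chosen with earlier results of these data known. The 10 genes were described whatever their values. Genes named from a related list passed the test in the comparison given, at a mean of at least 1 CPM. They were among its 3 highest or 3 lowest log2 fold changes, and not every such gene was named. The labels call the samples biological replicates without saying whether each was a separate culture or litter, so p-values measure the spread between these samples. Correlations of same-numbered libraries, after each group was centred, ran from -0.174 to 0.113, which cannot settle whether replicate numbers pair the samples. The lowest was between wild type vehicle replicate 4 and wild type TNFα replicate 4, each of which lay toward the other treatment on the first principal component.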

Additional observations from a re-analysis of the deposited data

Results flagged for a closer look

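In the 40 sets of 4 libraries (10 genes in 4 groups), 2 held a library whose gap to the nearest other library exceeded Dixon's 95% critical value, where chance gives about 1 in 20. *Ibsp* in *Notch2* mutant vehicle replicate 2 was at 3.44 CPM, while the other libraries of the group were at 4.96 to 5.25 CPM. *Ihh* in wild type TNFα replicate 3 was at 0.0583 CPM, from 1 count, while the other 3 libraries of the group were at 0. With 3 libraries at 0 Dixon's ratio takes its largest value whatever the count in the last, so the rate of 1 in 20 does not apply to *Ihh*.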

How the results depend on the processing

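Of the fold changes of the 10 genes, those with 1 library left out kept direction and call in 440 cases, lost the call in 18, gained it in 7 and changed sign in 7, and under the other settings these numbers were 296, 10, 11 and 2. Requiring a log2 fold change of at least 1 left 0 genes of the 10 between genotypes with vehicle, 1 with TNFα and 4 for TNFα in mutant cells, and among all genes 244, 272 and 2720, with 2279 for TNFα in wild type cells and 10 for the interaction. With no filter beyond 1 count, 5 of the 10 genes differed between genotypes with TNFα, as did 2158 of 26413 genes, and 3 passed the interaction, as did 266 of 28572. DESeq2 called 1 of the 10 and 206 of all genes for the interaction, and without replicate 4 of both wild type groups 1 passed, *Pth1r*, as did 132 of 20955 genes. With 1 library left out the interaction called 0 to 1 of the 10, with *Sp7* called without wild type TNFα replicate 2 and *Pth1r* without replicate 4, and 51 to 156 of all genes, with 156 without mutant vehicle replicate 1, 66 without mutant vehicle replicate 2 and 51 without mutant TNFα replicate 3. The other comparisons then called 4 to 7 genes between genotypes with vehicle, 2 to 4 with TNFα, 8 to 9 for TNFα in wild type and 6 to 7 in mutant cells. Among all genes these comparisons called 1578 to 2666, 1458 to 2075, 7757 to 8549 and 7915 to 9307, in the same order. *Col10a1* with TNFα in mutant cells changed sign under edgeR's own filter (0.0096) and over libraries left out (-0.055 to 0.026), and the interaction of *Phospho1* did so without replicate 4 of both wild type groups (-0.18) and over libraries left out (-0.11 to 0.37). The cause was not tested. With the replicate number as a block, 6, 3, 9, 6 and 0 of the 10 genes were called between genotypes with vehicle and with TNFα, for TNFα in wild type and mutant cells and for the interaction, and 2072, 1741, 8209, 8772 and 74 of all genes. The block ended the calls of *Panx3* between genotypes with TNFα and of *Ibsp* with TNFα in mutant cells, and added *Pth1r* between genotypes with TNFα. Depth limits *Ihh*, *Phospho1* and, with TNFα, *Sp7*, since 3 counts came to 0.0678 CPM in the deepest and 0.872 CPM in the shallowest library.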
